A study of Arabidopsis thaliana with 4 samples.

Results

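Genes for proteins that protect plant cells during cold and dehydration were followed across mixed-stage inflorescences of Arabidopsis thaliana. They were given as a list of 10 probe sets out of 22746 on the ATH1 oligonucleotide array, not counting its control probe sets. The members were chosen on signals of these same arrays, compared by genotype and by sample number, so their values are a description, and how many of them a fit over the whole array called is no support for either comparison. RNA came from wild-type Col-0 plants and from plants carrying xrn4-5 in the Col-0 ecotype, an allele of the gene for the cytoplasmic 5'-to-3' exoribonuclease XRN4, an enzyme that removes RNA lacking a cap. Each genotype had 2 samples, numbered 1 and 2 in their titles, and each sample was hybridized to 1 array. All plants grew at 21 °C under days of 16 h light and 8 h dark, and no cold, drought or hormone treatment is given for any sample. The labels do not say what a sample number marks, whether like samples were taken from different plantings, or at what time of day they were harvested.

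These genes belong to a response that plants raise when temperature drops or water is lost. CBF transcription factors bind a short promoter element in many of them after cold, and the hormone abscisic acid acts on overlapping targets through bZIP factors. The products are mostly small, very hydrophilic proteins that stay soluble on heating or drying and shield membranes and enzymes. Several are also under control of the circadian clock or made during normal development, in maturing pollen and seeds. RD29A and RD29B encode hydrophilic dehydration-responsive proteins, and COR15A and COR15B encode chloroplast proteins that stabilise membranes during freezing. COR47, ERD10 and LTI30 are dehydrins, a class of late embryogenesis abundant (LEA) proteins. KIN1 is a small cold-induced protein, and AT4G30650 and AT4G30660 encode very small hydrophobic membrane peptides of the RCI2 family.

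The platform annotation gives exactly 1 gene for 6 of the 10 probe sets. It lists KIN1 together with its neighbour KIN2 for 246481_s_at, so that probe set reads both and is called KIN1/KIN2 here. The names RD29A, RD29B and ERD10 come from the list of probe sets alone, because the annotation used here does not list 248337_at, 248352_at and 259516_at. In the TAIR10.1 gene order, 8 of the 10 genes stand in 4 pairs with no protein-coding gene between the partners. These pairs are RD29A with RD29B on chromosome 5, COR15A with COR15B on chromosome 2, COR47 with ERD10 on chromosome 1, and AT4G30650 with AT4G30660 on chromosome 4.

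Median signal per array lay between 240 and 248 over 22810 probe sets, and all 4 arrays had been scaled to a common trimmed mean before deposition. A probe set was tested if its mean signal exceeded 160, which held for 13647 probe sets and for 9 of the 10 members. RD29B, with a mean of 25.7, stayed below that limit. XRN4 has no named probe set here, so the genotype labels were not checked against the mutated gene. The control probe set for 25S ribosomal RNA read 763 in array 1 of Col-0 and between 251 and 296 in the other 3 arrays. The control transcript of actin had a log2 difference of its 5' over its 3' probe set of -0.48 and -0.52 in xrn4-5 and of -0.67 in both Col-0 arrays. Array 1 of Col-0 was thus apart in the ribosomal RNA signal, and it was also the lowest array for 8 of the 10 members. Over all 22746 probe sets it was the lowest in 24.5%. The part of either control in the members' values was not tested.

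All 10 probe sets read higher in xrn4-5 than in Col-0 within both same-numbered pairs of arrays, which held for 31.2% of all probe sets. Several of these gaps were small, and in the authors' deposited table, with 1 decimal, the log2 ratio of the second pair was 0.0 for LTI30 and for AT4G30660, each with a change p-value of 0.5. In the first pair their ratios were 1.6 and 1.0, with change p-values of 8.8e-05 and 2.3e-05. Each change p-value sets a single array against another, so it does not measure the spread between samples. KIN1/KIN2 had a ratio of 0.1 and a change p-value of 0.5 in both pairs of the authors' deposited table. The 10 fell into 2 patterns of 5. For RD29A, RD29B, COR15A, COR47 and ERD10, the genotypes did not overlap and the xrn4-5 arrays were the higher ones. In COR15B, KIN1/KIN2, LTI30, AT4G30650 and AT4G30660, both arrays numbered 2 lay above both arrays numbered 1 whatever the genotype. Over all probe sets the first pattern held for 21.4% and the second for 17.5%. The opposite orders, with both xrn4-5 arrays or both arrays numbered 2 lowest, held for 17.2% and 18.2% of all probe sets and for 0 of the 10. As the members were chosen with these values known, their counts are a description. In the genotype fit over all tested probe sets (limma, adjusted p under 0.05), 0.00733% were called higher in xrn4-5 and 0% lower, and 0 of the 9 tested members were among them.

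**Figure D1:**
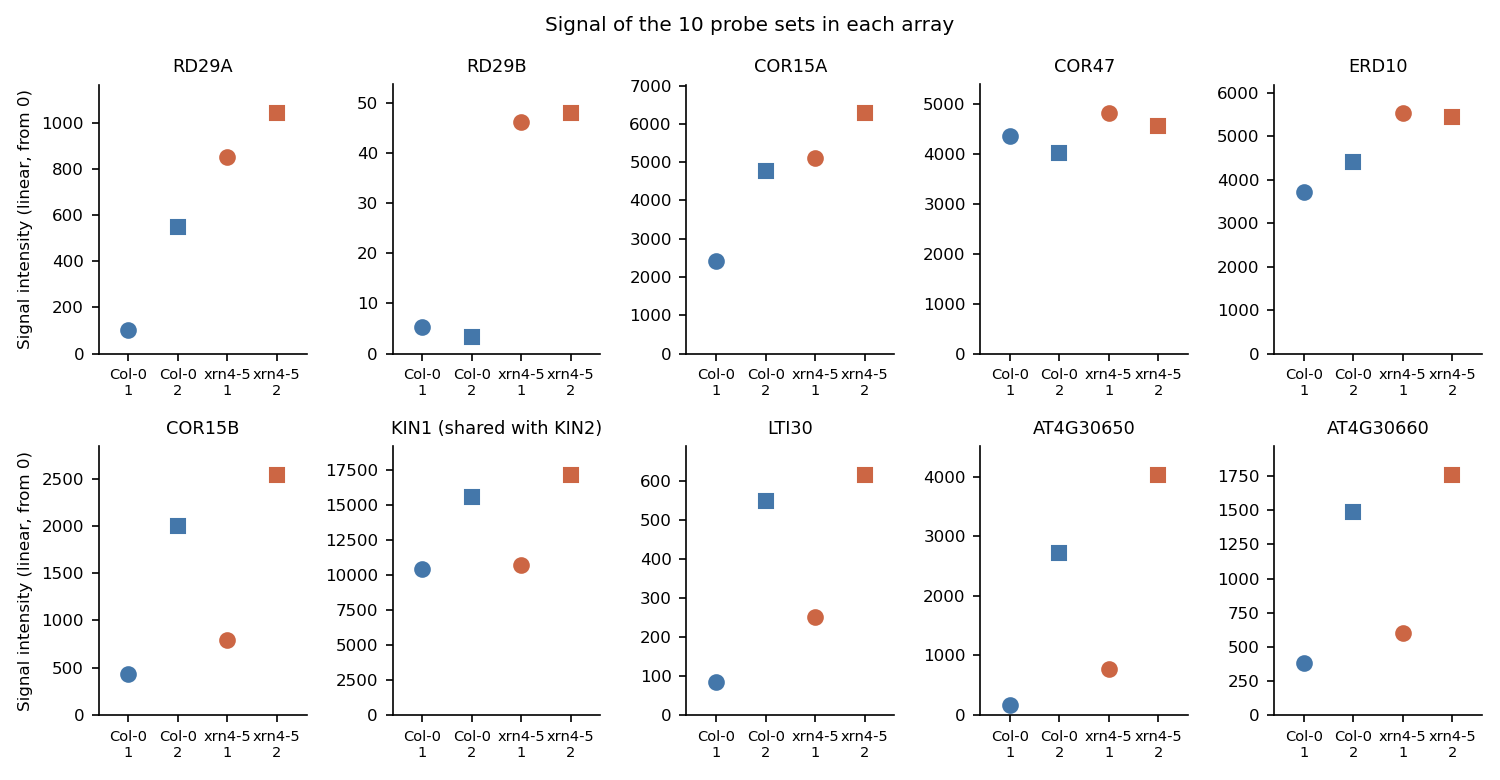
Signal intensity on a linear scale from 0 in each of the 4 arrays for the 10 probe sets, with Col-0 in blue, xrn4-5 in orange, circles for arrays numbered 1 and squares for arrays numbered 2. Both orange points lie above both blue points in the top row, and both squares lie above both circles in the bottom row.

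RD29A had the largest mean log2 difference between genotypes among the tested members, at 1.81. Its signal was 853 and 1041 in xrn4-5 arrays 1 and 2, and 101 and 550 in Col-0 arrays 1 and 2. The xrn4-5 arrays lay close together, whereas the Col-0 arrays differed 5.43-fold from each other. The xrn4-5 over Col-0 ratio was therefore 8.42-fold between the arrays numbered 1 and 1.89-fold between those numbered 2. The 5.43-fold and 8.42-fold ratios are uncertain in size, because array 1 of Col-0 lay below 160, the limit on mean signal for testing. The mean of xrn4-5 was 947 ± 133 (SD, n = 2) and that of Col-0 was 326 ± 317 (SD, n = 2), so the Col-0 spread was nearly as large as the Col-0 mean. In the authors' deposited table the log2 ratios of RD29A were 2.7 and 0.7 in the 2 pairs, with change p-values of 2e-05 and 3e-05.

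RD29B, its neighbour on the chromosome, had the same order of genotypes at a very low signal. The xrn4-5 arrays read 46.3 and 48.0 and the Col-0 arrays 5.3 and 3.3, with little spread within either genotype. All 4 values lie far below the limit for testing, where a ratio of signals is not a measure of transcript ratio, and no fold is given. The authors' deposited table holds log2 ratios of 3.3 and 3.3 for RD29B, with change p-values of 0.5 and 0.0743. The mean log2 difference was 1.13 with a pseudocount of 32, 1.64 with 16 and 0.70 with 64, so its size is set by the pseudocount.

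COR15A read 5108 and 6278 in the xrn4-5 arrays and 2422 and 4778 in the Col-0 arrays. All arrays but array 1 of Col-0 lay within a narrow range, and the lower xrn4-5 value was only slightly above the higher Col-0 value. The xrn4-5 over Col-0 ratio was 2.11-fold between the arrays numbered 1 and 1.31-fold between those numbered 2. The authors' deposited table gives log2 ratios of 1.0 and 0.2 for COR15A, with change p-values of 2e-05 and 0.253.

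The neighbouring dehydrin genes COR47 and ERD10 varied least. COR47 read 4821 and 4574 in the xrn4-5 arrays and 4376 and 4025 in the Col-0 arrays. ERD10 read 5526 and 5440 in the former and 3713 and 4406 in the latter. Neither gene's genotypes overlapped, but the gaps were small. The log2 difference between genotypes was 0.14 and 0.18 in the 2 pairs for COR47, and 0.57 and 0.30 for ERD10. In the authors' deposited table both ratios were 0.2 for COR47, with change p-values of 0.223 and 0.213, and 0.4 for ERD10, with 2e-05 and 0.00407. By sample number COR47 was slightly lower in number 2 in both genotypes, and ERD10 was higher in number 2 in Col-0 and almost level in xrn4-5.

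The other 5 members separated by sample number. AT4G30650 had the widest range of any member as a fold of highest over lowest array, at 765 and 4034 in arrays 1 and 2 of xrn4-5 and 168 and 2719 in arrays 1 and 2 of Col-0. Number 2 exceeded number 1 by 16.1-fold in Col-0 and by 5.28-fold in xrn4-5. Ratios over array 1 of Col-0 are uncertain in size, as its signal of 168 was close to 160, the limit on mean signal for testing. Between genotypes the ratio was 4.54-fold in the arrays numbered 1 and 1.48-fold in those numbered 2, both smaller than the differences by number. The authors' deposited log2 ratios of AT4G30650 were 2.0 and 0.4, with change p-values of 2e-05 and 0.0101. Its chromosomal neighbour AT4G30660 showed the same order at a smaller scale. It read 601 and 1760 in xrn4-5 and 385 and 1490 in Col-0, a number 2 over number 1 ratio of 2.93-fold and 3.87-fold.

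COR15B, the neighbour of COR15A, read 794 and 2540 in arrays 1 and 2 of xrn4-5 and 438 and 1997 in those of Col-0. Its number 2 over number 1 ratio was 3.20-fold in xrn4-5 and 4.56-fold in Col-0, against 1.23-fold and 1.97-fold for COR15A. COR15A and COR15B were thus the single chromosomal pair whose partners fell in different patterns. The within-pair order of genotypes was nevertheless alike, with the higher signal in xrn4-5 for both genes. The authors' deposited log2 ratios of COR15B were 0.7 and 0.4, with change p-values of 2e-05 and 6.8e-05.

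LTI30, the third dehydrin, differed from COR47 and ERD10 in following the sample number. It read 251 and 615 in xrn4-5 and 85.5 and 547 in Col-0. Number 2 was 2.45-fold above number 1 in xrn4-5 and 6.40-fold in Col-0, and the arrays numbered 2 of both genotypes lay near each other. The 6.40-fold ratio is uncertain in size, because array 1 of Col-0 lay below 160, the limit on mean signal for testing. KIN1/KIN2 read 10755 and 17185 in xrn4-5 and 10420 and 15596 in Col-0. Its number 2 over number 1 ratio was 1.60-fold in xrn4-5 and 1.5-fold in Col-0, and its genotypes differed by at most 1.10-fold within a pair.

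Across the 9 tested members, the median difference of number 2 over number 1 was 1.87 on the log2(intensity + 32) scale in Col-0 and 0.67 in xrn4-5. Over all tested probe sets the medians were -0.01 and 0.01. The median difference of xrn4-5 over Col-0 was 0.81 between the arrays numbered 1 and 0.30 between those numbered 2, against 0.00 and 0.02 over all tested probe sets. Within the arrays numbered 2, which leave out array 1 of Col-0, the members' differences ran from 0.14 to 0.88. Of the 9, 7 lay inside the 5th to 95th percentile of all tested probe sets in that pair, -0.45 to 0.49, and RD29A and AT4G30650 lay above it. In 7 of the 9 tested members the genotype difference was larger in the arrays numbered 1, which was so in 47.8% of tested probe sets. COR47 and KIN1/KIN2 were the exceptions. With 1 array per genotype and number, a test of whether the genotype difference depends on the number has no residual degrees of freedom.

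**Figure D2:**
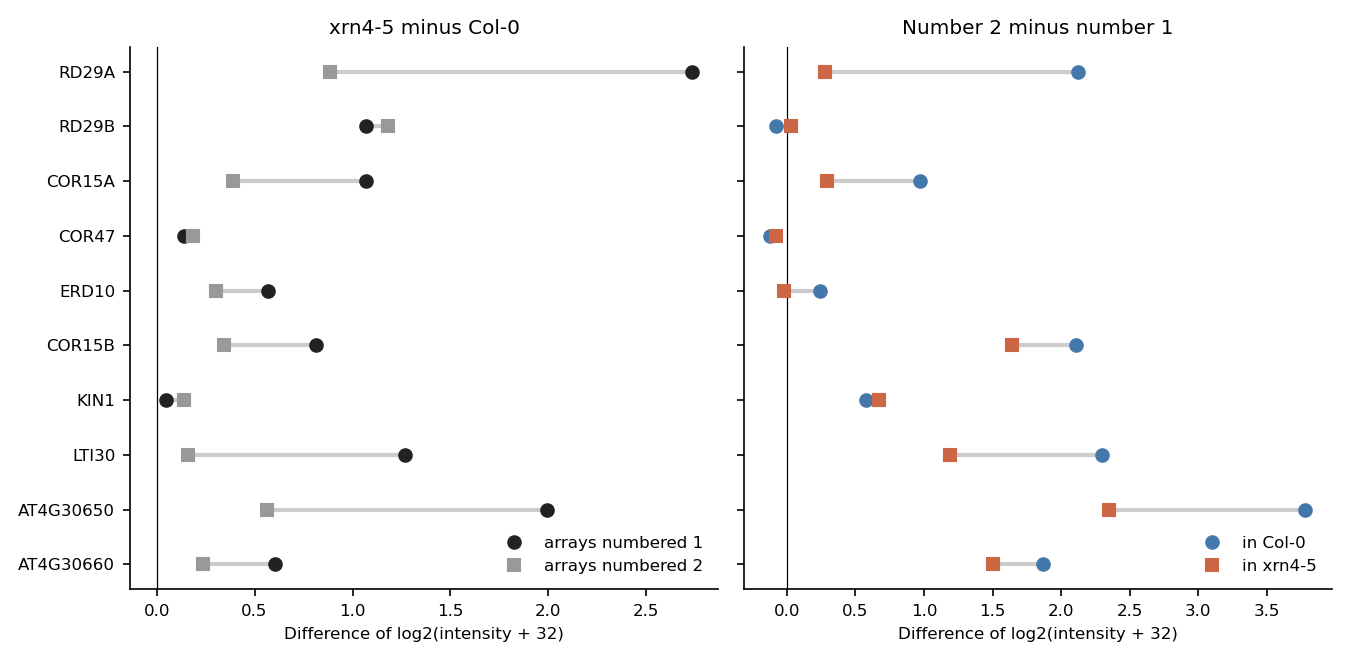
Differences of log2(intensity + 32) for the 10 probe sets, xrn4-5 minus Col-0 on the left (arrays numbered 1 as black circles, numbered 2 as grey squares) and number 2 minus number 1 on the right (Col-0 as blue circles, xrn4-5 as orange squares). All 20 genotype differences lie to the right of 0, and the differences by number are above 0.5 in both genotypes for the lower 5 probe sets alone.

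The genotype difference depended on which arrays were used. Averaged over both pairs, the median of the tested members was 0.58. Without array 1 of Col-0 it became -0.20, and the values of COR15B, KIN1/KIN2, LTI30, AT4G30650 and AT4G30660 turned negative. Without array 2 of xrn4-5 the median was 0.12, and the values of COR15B, KIN1/KIN2 and AT4G30660 turned negative. Without array 1 of xrn4-5 or array 2 of Col-0 the median was 1.17 and 1.35. Each of these comparisons sets both arrays of a genotype against a single array of the other, so it mixes genotype with number. In bulk tissue, fewer cells of a type and less RNA per cell cannot be told apart, which applies to every value given here.

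By sample number, 5 of the 9 tested members had a mean log2 difference of at least 1, compared with 0.667% of all tested probe sets. These were RD29A, COR15B, LTI30, AT4G30650 and AT4G30660. The mean of RD29A, 1.20, came from 2.13 in Col-0 and 0.28 in xrn4-5. A limma fit of number with genotype as a term called 177 of 13647 probe sets higher in number 2 (adjusted p under 0.05), or 1.3%, and 151 lower, or 1.11%. Of the 9 tested members, 5 were among those called higher, namely COR15B, KIN1/KIN2, LTI30, AT4G30650 and AT4G30660. Nothing is read from either count of members, since the list was made with these differences known. The fit has 1 residual degree of freedom. When dim probe sets were kept or when the genotype term was dropped, 0 of the members were called.

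**Figure D3:**
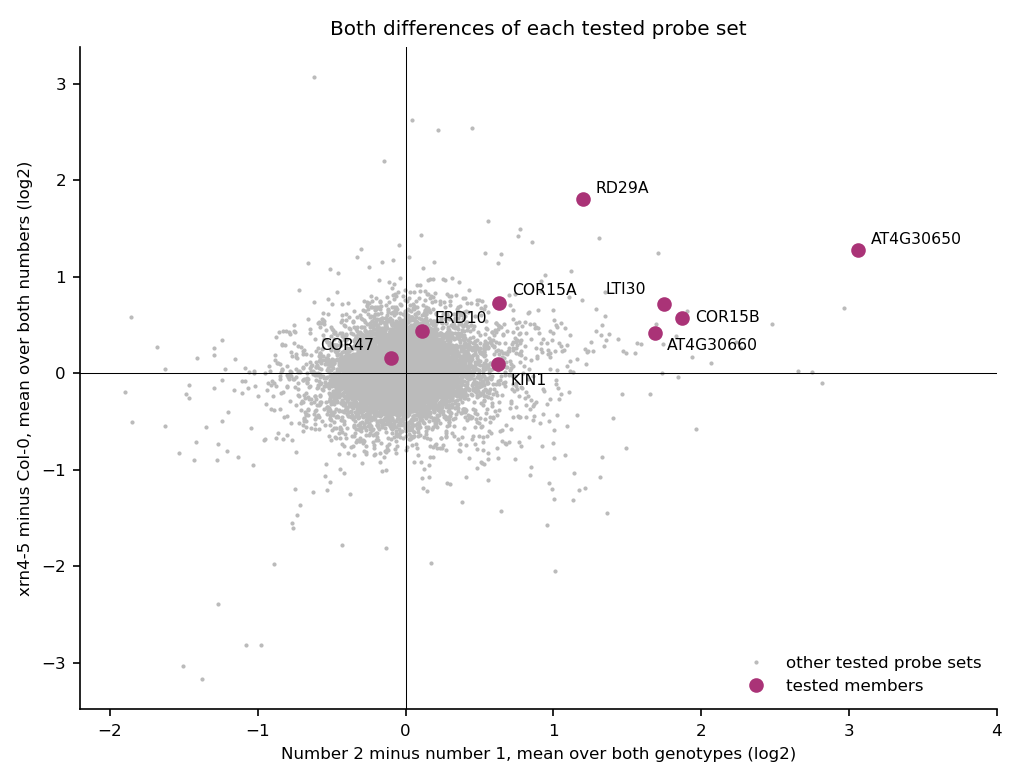
Number 2 minus number 1 (x axis) against xrn4-5 minus Col-0 (y axis) as mean differences of log2(intensity + 32), with the 9 tested members in purple and the other tested probe sets in grey. The members lie above 0 on the y axis, and all but COR47 lie to the right of 0 on the x axis.

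Other genes of the same response were taken from lists of related genes, of which few had a probe set with exactly 1 named gene. Among genes induced by cold and dehydration, 4 of 37 further genes had such a probe set and 2 could be tested. Both were higher in number 2. COR27, a cold-induced and clock-controlled gene, read 25.1 and 425 in arrays 1 and 2 of xrn4-5 and 39.1 and 321 in those of Col-0. It passed the limit on mean signal through its arrays numbered 2 alone, and its arrays numbered 1 were as dim as RD29B, so the size of its log2 difference of 2.66 is not a measure of transcript ratio. Its limma adjusted p was 0.00233, and the alternatives gave 0.00092 to 0.101, the highest with dim probe sets kept. COR27 entered this test only because its arrays numbered 2 were high, so nothing is read from that p-value. Its genotypes overlapped, with a log2 difference of 0.03 between them (limma adjusted p = 0.995).

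The dehydration-induced gene RD2 read 1170 and 1840 in xrn4-5 and 889 and 1578 in Col-0, giving a log2 difference by number of 0.72 with a 95% interval from 0.46 to 0.99 (limma adjusted p = 0.021, from 0.0139 to 0.297 over the alternatives). The 2 genes not tested were dim. COR28, related to COR27, read 3.5 and 144 in xrn4-5 and 18.7 and 143 in Col-0, so its arrays numbered 2 were also the higher ones. The histone H1 variant gene HIS1-3 read 117 and 83.8 against 82.1 and 68.7, with number 2 lower in both genotypes.

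Of 18 cold regulators, 2 were tested. STZ, a zinc finger repressor induced by cold and salt, read 118 and 213 in xrn4-5 and 176 and 537 in Col-0. By number its log2 difference was 1.08 (limma adjusted p = 0.0394, from 0.0296 to 0.553 over the alternatives), with number 2 higher in both genotypes. Of the 7 alternatives, 2 gave an adjusted p under 0.05. The mean of its arrays numbered 1 lay below 160, the limit on mean signal for testing. STZ thus entered the test through its arrays numbered 2, and nothing is read from that p-value. Between genotypes it pointed the opposite way from the members, at -0.84 (limma adjusted p = 0.665). SIZ1, a SUMO ligase gene, had a log2 difference of 0.06 by number and -0.12 by genotype (limma adjusted p = 0.884 and 0.790). No gene of the abscisic acid pathway list had a probe set with 1 named gene, and its 36 genes, receptors, phosphatases, kinases and bZIP factors among them, were not analysed here. The clock gene GI read 431 and 537 in the arrays of xrn4-5 and 214 and 360 in those of Col-0. Its log2 difference was 0.72 by genotype with a 95% interval from 0.11 to 1.34 (limma adjusted p = 0.493) and 0.49 by number (limma adjusted p = 0.184).

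LEA proteins form a large family to which 5 of the members belong. Of the 47 other LEA genes, 32 had a probe set and 12 were tested. None passed limma in either comparison, with 3 at an unadjusted p under 0.05 by genotype and 2 by number. Over all 13647 tested probe sets, 741 higher and 539 lower reached that level by genotype, and 918 higher and 981 lower by number. Of these 12, 9 had a lower estimate in xrn4-5, compared with 47.4% of all tested probe sets, with a median log2 difference of -0.16 against 0.01 over all tested probe sets. AT2G33690 read 178 and 223 in the xrn4-5 arrays and 380 and 345 in the Col-0 arrays (log2 difference -0.77, limma adjusted p = 0.391). For AT4G13230 the values were 586 and 693 against 963 and 993, and for AT3G02480 they were 1154 and 1443 against 1703 and 1725.

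By number, the dehydrin gene HIRD11 came nearest to the threshold among the other LEA genes. Its arrays 1 and 2 read 7816 and 10123 in xrn4-5 and 6754 and 9434 in Col-0, giving a log2 difference of 0.43 (limma adjusted p = 0.058, from 0.04 to 0.347 over the alternatives). LEA4-5 had the opposite sign, at -0.53 (limma adjusted p = 0.266), and AT2G23120 had 0.22 (limma adjusted p = 0.509). The median over the 12 genes was 0.07.

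The 3 other RCI2 genes tested had smaller differences by number than AT4G30650 and AT4G30660. By number their log2 differences were 0.20 for AT1G57550, 0.16 for AT2G24040 and -0.10 for AT2G38905, and none passed (limma adjusted p from 0.645 to 0.817; 0 of 3 with an unadjusted p under 0.05). By genotype AT2G38905 read 414 and 393 in the xrn4-5 arrays and 643 and 585 in the Col-0 arrays (log2 difference -0.57, limma adjusted p = 0.391).

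**Figure D4:**
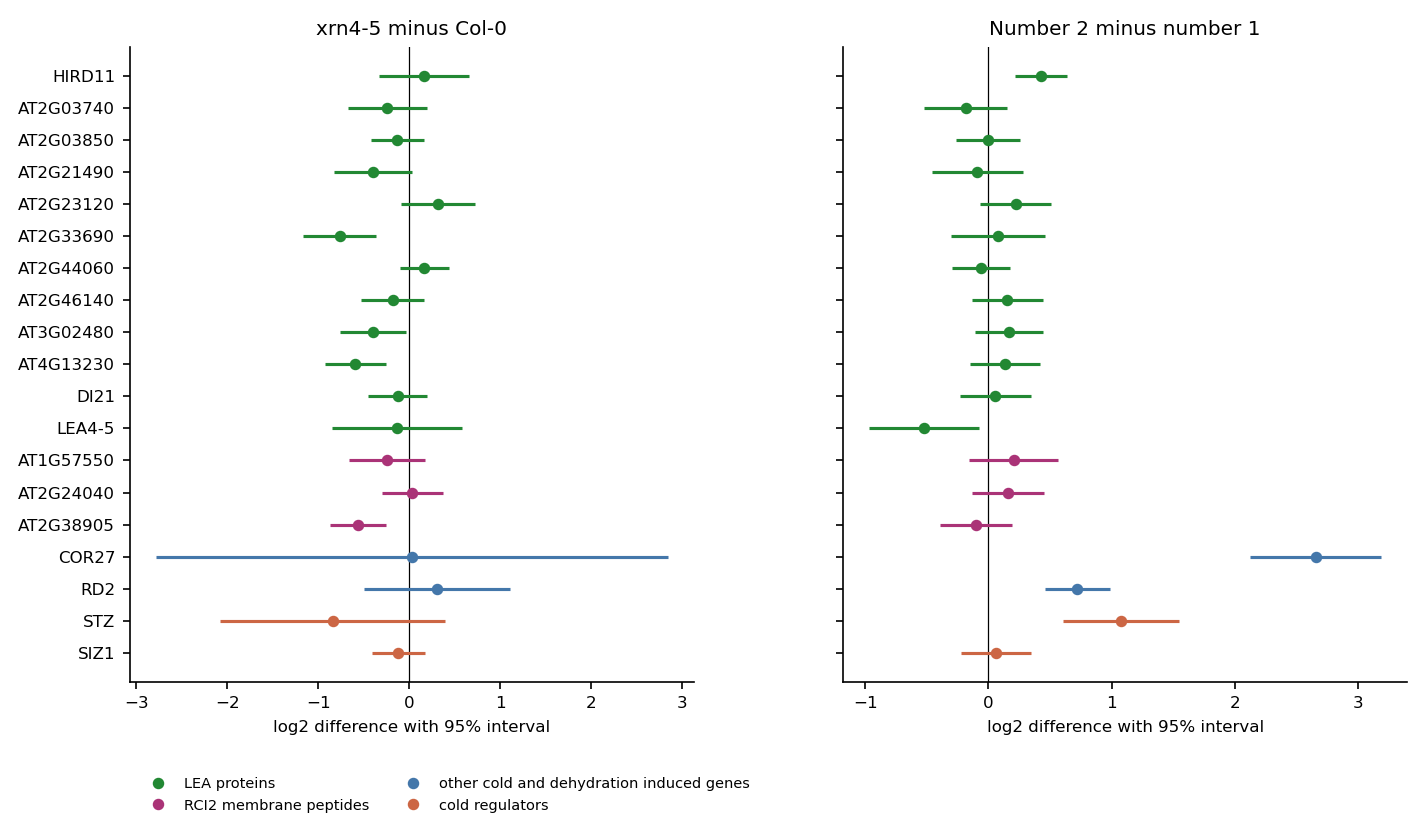
Log2 differences with 95% intervals from limma for 19 tested genes of the related lists that are not members, by genotype on the left and by sample number on the right, coloured by list. By number, the intervals of COR27, RD2, STZ and HIRD11 lie to the right of 0 and that of LEA4-5 to the left. By genotype, those of AT2G33690, AT4G13230, AT3G02480 and AT2G38905 lie to the left of 0, and those of COR27 and STZ are wide. The genotype fit has no term for number, so differences by number widen its intervals. The intervals are not adjusted for the number of probe sets tested.

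Genes whose 4 arrays ran most like the mean profile of the tested members were sought among 7205 other genes, by Euclidean distance of centred log2(intensity + 32) values over 4 arrays. The nearest was CHL, a chloroplast lipocalin, which read 878 and 1709 in arrays 1 and 2 of xrn4-5 and 421 and 1504 in those of Col-0, at a distance of 0.19. AT5G12270, AT1G20030, AT1G19370 and AT3G47160 followed at distances of 0.21 to 0.27. All 5 had their lowest signal in array 1 of Col-0 and their highest in array 2 of xrn4-5. This largely follows from how they were chosen, since the mean profile has that order. The members themselves lay between 0.57 and 1.99 from their own mean profile, AT4G30660 nearest and AT4G30650 farthest.

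Cell type markers of the inflorescence were read on the same arrays. Of 10 floral organ genes only AGL24 and SPT had a named probe set, and their summed signal lay between 370 and 438 in the 4 arrays. The 5 late pollen markers all had lower estimates in xrn4-5, and none passed limma (2 at an unadjusted p under 0.05 by genotype). Over all 13647 tested probe sets, 741 higher and 539 lower reached that level by genotype. The summed signals of the 5 markers, mostly from AT5G45880, were 4573 and 5140 in xrn4-5 and 7502 and 6475 in Col-0. By genotype the smallest p-values were those of VEX1 (log2 difference -0.845, limma adjusted p = 0.390), AT5G45880 (-0.54, adjusted p = 0.391) and the tubulin gene TUA1 (-0.29, adjusted p = 0.630). With the replicate block VEX1 passed at an adjusted p of 0.0452, the lowest over its alternatives, which reached 0.945. By number TUA1, the actin gene ACT12 and AGL65 came first, at log2 differences of -0.20, -0.18 and -0.13, and none passed. The 4 tapetum markers found of 6, with most of the signal from ATA27, summed to 7637 and 8390 in xrn4-5 and 9176 and 9260 in Col-0. None passed limma: by genotype ATA27, A9 and AT1G06170 had log2 differences of -0.20, -0.20 and -0.23, and by number A9, AMS and AT1G06170 had 0.34, 0.13 and 0.16, with A9 alone at an unadjusted p under 0.05. The seed coat gene BAN, the single gene found of 8 for developing seeds, read 409 and 319 in xrn4-5 and 670 and 182 in Col-0, so it was higher in the arrays numbered 1. RCA and PRK, found of 5 green leaf genes, summed to between 20020 and 23390, mostly from RCA, and no marker measured was at 0. The part of these cell types in the members' values was not tested.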

How the data were processed

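Total RNA (15 µg per sample) from 2 xrn4-5 and 2 Col-0 samples was labelled with biotin, per the labels' protocols. The submitters' processing notes name GCOS without a version or algorithm. The deposited intensity is a linear value per probe set and array, already scaled, with a trimmed mean of 500.04 in every array. The authors' deposited table gives log2 ratios rounded to 1 decimal and change p-values for same-numbered arrays, per the file headers; how the p-values were computed is not stated there.

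Intensities were analysed as log2(intensity + 32) without further normalization, a scale that understates differences at low signal. The 64 controls and the 40% with the lowest mean were left out of tests. Two-sided limma tests (version 3.58.1, R 4.3.3, lmFit then eBayes with an intensity trend) used Benjamini-Hochberg adjustment over all tested probe sets, by genotype (2 residual degrees of freedom) and by number with genotype as a term (1). The number of arrays limits the precision. In the genotype fit, p-values measure the spread between samples of a genotype, which may be technical. That fit has no term for number, so this spread also holds any difference by sample number. In the number fit, no arrays share both genotype and number. Its residual is how far the number difference disagrees between the genotypes, not a spread between like samples. Arrays of a genotype shared 47 (xrn4-5) and 46 (Col-0) identical values of 22810, so they are no duplicates.

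Members, lists and tests were chosen with earlier results of these data known. Names come from the platform annotation (13513 probe sets with 1 gene, 503 with several, 8730 not listed) and TAIR10.1 (13436 matched); the brightest probe set stood for a gene. Text names all members, list genes that passed (otherwise the 3 with the smallest p in each fit) and the 5 genes most like the members. Promoter and protein sequences were not analysed here. Alternatives changed the pseudocount, filter, normalization, variance prior, model terms and arrays. Deviations of same-numbered arrays from their genotype means correlated at 0.42 over tested probe sets, with 2 pairs only, and the labels state no pairing. Figures used matplotlib 3.10.9.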

Additional observations from a re-analysis of the deposited data

Results flagged for a closer look

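Among the members, 2 had sample number differences of opposite sign in the 2 genotypes, and the difference between genotypes in this respect was not tested. ERD10 had a log2 difference of number 2 over number 1 of 0.245 in Col-0 and -0.0226 in xrn4-5. The latter is close to no difference, since the median absolute log2 difference between the xrn4-5 arrays was 0.154 over all tested probe sets. RD29B, at its low signal, had -0.0795 in Col-0 and 0.031 in xrn4-5.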

How the results depend on the processing

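With 2 arrays per genotype and no probe-level data used here, dim members such as RD29B have no usable ratio, and the cause of each change was not tested, beyond fewer arrays or probe sets being left in some of them. The alternatives that left out arrays for the counts without overlap were chosen after seeing the data, and all others were planned. The single probe set called higher by genotype became 0 with the filter removed and 0 with eBayes without trend. Over the 4 arrays left out in turn it ranged from 0 to 3. The 0 called lower ranged from 0 to 7. With the replicate block, 71 were called higher and 61 lower, and still 0 of the 9 tested members. The members called by genotype ranged from 0 to 1 with arrays left out. The 1 was RD29A, among 3 called higher of 13647 without array 2 of Col-0, where Col-0 is 1 array assumed to vary like xrn4-5. By number, the 177 called higher became 1 with no filter, 70 without trend and 7 with no genotype term, and the 151 called lower became 0, 34 and 1. The related genes passing fell from 3 to 0 with no filter, 1 without trend and 1 with no genotype term. The 3 were COR27, RD2 and STZ, of which COR27 and STZ entered the test only through their arrays numbered 2. The 5 members called by number became 0 with no filter and 0 with no genotype term, and 4 without trend, where KIN1/KIN2 was not called. Of members without overlap, leaving out single arrays gave 5 to 10 by genotype and 5 to 8 by number. With 3 arrays the same orders were also more frequent over all tested probe sets, at 35.3% to 38.9% by genotype in place of 22.8% and 32.1% to 36.8% by number in place of 18.3%. The count by genotype was 10 without array 1 of xrn4-5 or array 2 of Col-0, where 38.7% and 37.7% of tested probe sets held the order, and nothing is read from that rise. The median genotype difference ranged from -0.20 to 1.35 over arrays left out. Leaving out either array of a genotype reduced the median number difference to that of the other genotype, 1.87 in Col-0 or 0.67 in xrn4-5. Other pseudocounts and normalizations turned no member's sign, though the pseudocount set the size of RD29B. Of 160 member values under alternatives, 12 had the opposite sign, all of them with an array left out. Leaving out an array gives the number fit with genotype no residual degree of freedom, and it was not run; motif searches were not run without sequences. By correlation in place of distance, the gene most like the members was UBC32 in place of CHL. UBC32 was nearly flat, at 891 and 929 in xrn4-5 and 849 and 913 in Col-0, and lay at a distance of 1.33. A correlation over 4 arrays does not take the size of differences into account.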
